A study of Rattus norvegicus with 20 samples.

Results

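Whole blood of 4 Wistar rats with surgically induced reflux esophagitis that had received STW5 at 0.5 ml/kg was compared with whole blood of 4 sham-operated rats. The 8 arrays were chosen by their titles from 20 in the series, with 1 Agilent 1-colour (Cy3) array per rat. STW5 is a liquid mixture of medicinal plant extracts, given for 7 days before the operation and for 10 days after it. Sham rats were operated on without inducing reflux and no drug is named for them, so the esophagitis and the drug differ together between these groups. The other groups were esophagitis with STW5 at 2 ml/kg, esophagitis with omeprazole at 30 mg/kg, and esophagitis left untreated, each with 4 arrays. The titles number the 0.5 ml/kg rats as group 4 and the design text numbers that dose as group 3, so the dose labels conflict; the titles were followed. The arrays of rats given 0.5 ml/kg, called treated arrays from here on, lay on slide 2 and the sham arrays on slide 1, and slide and group cannot be told apart.

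In reflux esophagitis, acid and bile flowing back from the stomach injure the esophageal lining, and cytokines such as interleukin-1 beta and chemokines that bind CXCR2 draw neutrophils out of the blood. Whole-blood RNA is a mixture: reticulocytes contribute globin transcripts, neutrophils and monocytes contribute oxidase, protease and pattern-receptor transcripts, and B and T cells contribute antigen-receptor transcripts. A transcript can therefore differ between groups because the number of cells of a type differs or because each cell holds more or less of it, and these cannot be told apart in whole blood.

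The 60-base array probes of some genes named below are shown, because each level below is the signal of 1 such probe. Their positions are those of the rn4 (RGSCv3.4) rat build, as the scanner files give them. Il1b, Cxcr2 and Mogat2 were higher on every treated array than on every sham array, and Pax5 and Krt222 were lower. Steap4 is shown with all 3 of its tested probes and Kank1 with both, because probes of these genes disagreed clearly in direction. No base is capitalised, since no part of a probe was singled out.
Il1b, chr3:116964465-116964524, minus strand: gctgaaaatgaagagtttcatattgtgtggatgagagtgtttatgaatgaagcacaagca
Cxcr2, chr9:73477254-73477313, plus strand: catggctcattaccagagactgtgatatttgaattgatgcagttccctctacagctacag
Mogat2, chr1:156516532-156516591, minus strand: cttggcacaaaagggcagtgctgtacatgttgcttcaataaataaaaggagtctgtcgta
Pax5, chr5:61089642-61089701, minus strand: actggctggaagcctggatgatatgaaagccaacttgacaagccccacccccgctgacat
Krt222, chr10:88134079-88134138, minus strand: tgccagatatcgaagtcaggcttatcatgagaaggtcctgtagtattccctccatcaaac
Steap4, brightest probe, chr4:22688668-22688727, minus strand: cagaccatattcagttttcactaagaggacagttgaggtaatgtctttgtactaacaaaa
Steap4, next probe, chr4:22690238-22690297, minus strand: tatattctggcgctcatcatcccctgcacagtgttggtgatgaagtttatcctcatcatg
Steap4, dimmest probe, chr4:22665782-22665841, minus strand: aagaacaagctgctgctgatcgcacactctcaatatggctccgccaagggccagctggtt
Kank1, brighter probe, chr1:228866691-228866750, plus strand: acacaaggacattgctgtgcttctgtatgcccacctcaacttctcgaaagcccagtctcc
Kank1, dimmer probe, chr1:228867639-228867698, plus strand: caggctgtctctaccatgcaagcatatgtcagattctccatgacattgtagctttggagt

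A level is a probe's processed intensity divided by the 75th percentile of its array, in log2, so levels of different genes are not compared. The 75th percentile of signal was 151.8, 307.6, 288.1 and 185.9 on the treated arrays, against 115.5, 173.2, 102.7 and 97.83 on the sham arrays (233 ± 76.2 against 122 ± 34.7, SD, n = 4 each; two-sided exact permutation p = 0.0571). Of all probes, 54.7% ± 2.89 were well above background on treated arrays and 47.2% ± 2.14 on sham arrays, without overlap (SD, n = 4 each; exact permutation p = 0.0286, the smallest that 4 against 4 can give). Among tested genes, 38 of 39 erythroid genes and all 23 T-cell genes were well above background on all 8 arrays. A probe was tested only if it was well above background on at least 4 arrays of the series. No share of all genes was set against these counts, so they do not test the blood label. Across genes, which are not independent replicates, treated arrays correlated with each other at 0.947 to 0.980, sham arrays at 0.975 to 0.986, and treated with sham arrays at 0.931 to 0.982. Treated array 1 was closer to sham array 4 (0.982) than to any other array.

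**Figure D1:**
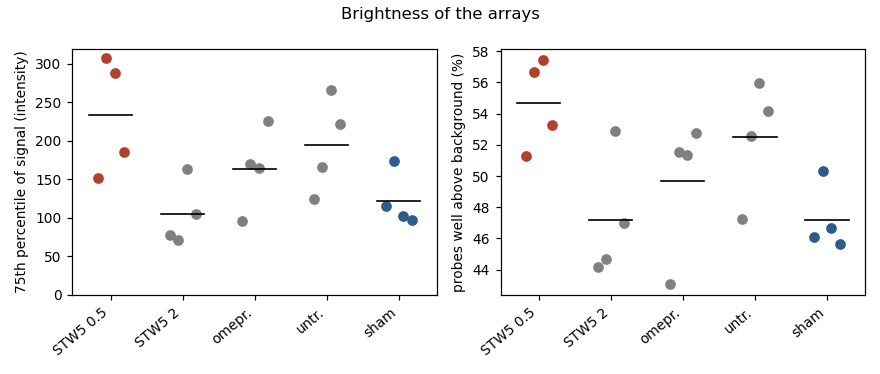
The 75th percentile of signal (intensity, left) and the percentage of probes well above background (right) of each array, with group means as lines and 4 arrays per group. The treated arrays (STW5 0.5 ml/kg, red) lay at 51.28% of probes or more and the sham arrays (blue) at 50.32% or less, whereas for the 75th percentile treated array 1 lay below sham array 2.

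The comparison asked how the blood of treated esophagitis rats differs from that of rats without esophagitis. No gene passed among 15239 tested (limma over all 20 arrays, adjusted p below 0.05; 0 called, 0% of genes), and the smallest adjusted p was 0.176 (limma). An unadjusted p below 0.05 was found for 1765 genes, 763 of them higher and 1002 lower in treated rats. All 4 treated arrays lay above all 4 sham arrays for 895 genes (5.87%), and below them for 677 genes (4.44%). These shares of all genes are the reference for every list count below. The median gene lay at a log2 difference of -0.16, and the list medians given below are relative to it. The median standard error was 0.35, and in simulated data the same fit recovered 18.2% of genes changed by a log2 of 1 and 82.1% of those changed by 2, with 10 false calls. The simulated noise was independent between genes and few genes were changed, so these rates need not hold for the real arrays.

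When the 8 arrays were fitted alone, without the spread of the other 3 groups, 40 genes passed, 39 of them higher (0.256% of the genes tested) and 1 lower (0.00656%). Their adjusted p values lay between 0.0366 and 0.0491 (limma), near the threshold. The count changed when single arrays were left out, which also leaves a smaller group and fewer residual degrees of freedom. Without treated array 1 it was 996 genes, 306 higher and 690 lower, and without treated array 2 it was 56. Without treated array 3 or 4, or sham array 1, 2 or 4, no gene passed (limma; 1935, 3288, 2074, 3573 and 2157 genes with an unadjusted p below 0.05), and without sham array 3 there was 1. All 40 genes had treated and sham arrays that did not overlap, and the same 40 were among the 241 that passed with quantile normalization of these arrays. Of the 40, 7 belonged to a gene list used here, and the lists held 742 tested symbols among the 15239 genes.

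Several of the 40 are known from neutrophils and monocytes; those named in this paragraph were singled out after their values were seen. Prok2, a secreted prokineticin, lay at -0.18, -0.05, -0.43 and -0.33 on treated arrays, against -2.89, -2.50, -1.88 and -2.50 on sham arrays, a log2 difference of 2.20 ± 0.24 (SE; limma adjusted p = 0.0366 on 8 arrays, 0.285 on 20). Dgat2, the enzyme of the last step of triglyceride synthesis, lay at 3.50, 3.06, 3.97 and 2.89 on treated arrays, against 1.00, 1.51, 1.5 and 1.63 on sham arrays. For both genes the lowest treated array was over 1 log2 unit above the highest sham array. C5ar1, the receptor of complement fragment C5a, lay at 2.67, 2.68, 3.21 and 2.42, against 0.86, 1.60, 1.22 and 1.44 on sham arrays. Clec7a, the beta-glucan receptor dectin-1, lay at 0.13, 0.21, 0.86 and -0.08, against -1.55, -1.27, -1.40 and -1.29 on sham arrays. Nlrp3, the inflammasome sensor through which interleukin-1 beta is matured, lay at -1.40, -1.41, -0.55 and -1.52 on treated arrays, against -3.56, -2.89, -2.96 and -2.55 on sham arrays, where 1 of 4 was well above background. Treated array 3 was the highest array for Dgat2, C5ar1, Clec7a and Nlrp3, and no sham array reached the treated range for any of them.

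Cytokine genes included the list member with the smallest p, Il1b. Il1b, the pro-inflammatory cytokine interleukin-1 beta, lay at 4.63, 4.55, 5.64 and 4.57 on treated arrays, against 2.87, 2.92, 3.14 and 3.33 on sham arrays, a difference of 1.78 ± 0.36 (limma adjusted p = 0.239 on 20 arrays, 0.0459 on 8). The groups did not overlap, and treated array 3 stood above the other treated arrays. Il1rn, which encodes the antagonist of the interleukin-1 receptor, lay at 4.26, 3.99, 4.74 and 4.07 on treated arrays, against 2.70, 3.09, 2.77 and 3.1 on sham arrays. Both the cytokine and its antagonist were thus at higher levels on every treated array. Tnf, tumour necrosis factor, lay at 0.06, 0.79, 1.19 and 0.56 on treated arrays, against -0.94, -0.13, -0.85 and -0.79 on sham arrays. Bcl3, an atypical NF-kB inhibitor family member, had a difference of 0.98 ± 0.31, and Tnfaip2 was at least 3.32-fold higher, since 0 of 4 sham arrays were well above background for it. Of the 20 tested inflammatory cytokine and NF-kB target genes, 5 were above sham on all treated arrays (25%, against 5.87% of all genes) and 0 below. The list's relative median was 0.47, 0.17 with the 75th percentile as a covariate and 0.077 with the dose labels exchanged. The NF-kB subunit and inhibitor genes themselves were near 0: Nfkb1 lay at 0.21 ± 0.28, Rela at 0.02 ± 0.18 and Nfkbia at 0.04 ± 0.34.

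Mature neutrophil genes made up the cell type list with the highest median. Of 25 tested (28 listed), 23 lay above the median gene, the relative median was 1.32, and 16 (64%, against 5.87% of all genes) were above sham on all treated arrays. None passed in limma over 20 arrays, and 14 had an unadjusted p below 0.05. Cxcr2, the receptor through which chemokines draw neutrophils into tissue, lay at 2.83, 2.24, 3.53 and 2.30 on treated arrays, against 0.55, 1.21, 0.98 and 1.30 on sham arrays (1.71 ± 0.45, limma adjusted p = 0.283). Csf3r, the receptor of the granulocyte growth factor G-CSF, lay at 3.08, 2.24, 4.00 and 2.51, against 1.19, 1.93, 1.15 and 1.70 on sham arrays. Treated array 3 was the highest and array 2 the lowest for both receptors, and every treated array was above every sham array.

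Oxidase and granulocyte effector genes differed by unequal amounts. Among subunits of the phagocyte oxidase, the differences were Ncf4 0.94 ± 0.33, Cyba 0.78 ± 0.35, Ncf1 0.69 ± 0.34 and Cybb 0.27 ± 0.40, and Cybb overlapped between groups. Padi4, which citrullinates histones in neutrophil extracellular traps, lay at 3.64, 2.34, 3.52 and 3.16 on treated arrays, against 0.97, 1.82, 1.55 and 1.72 on sham arrays. Clec4d, a C-type lectin receptor, lay at 1.00, 0.37, 1.47 and 0.48 on treated arrays, against -1.31, -0.31, -0.91 and -0.83 on sham arrays, and neither gene overlapped between groups. Clec4d had a difference of 1.67 ± 0.40, and Il1r2, the decoy receptor of interleukin-1, one of 1.71 ± 0.69. The calprotectin genes S100a8 (1.34 ± 0.81) and S100a9 (1.32 ± 0.81) overlapped between groups: S100a8 lay at 6.64, 4.63, 5.70 and 5.59 on treated arrays, against 3.63, 5.03, 4.33 and 4.19 on sham arrays. Mmp25, a membrane metalloprotease of neutrophils, lay lower (-0.60 ± 0.31), as did Mxd1 (-0.35 ± 0.48).

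The neutrophil score of an array, the mean of centred levels over the list relative to all genes, was 0.43, 0.17, 0.93 and -0.06 on treated arrays, against -1.13, -0.56, -0.81 and -0.84 on sham arrays. The groups did not overlap. Treated arrays 2 and 3 were the brightest. Without them 18 of 25 genes were above sham, against 1186 of all 15239, with a relative median of 1.2. Leaving arrays out can only raise such a count, so it does not test the part of brightness. With the dose labels exchanged 6 of 25 were above sham, against 667 of all genes, and the median was 0.71. In the other esophagitis groups the score spanned -1.05 to 0.21 with STW5 at 2 ml/kg, -0.30 to 0.90 with omeprazole and -0.91 to 1.47 without treatment. The highest untreated score was that of untreated array 2 (1.47), above every treated array. The other 3 untreated arrays lay at -0.91, 0.08 and 0.30, below treated arrays 1 and 3. The score of 0.30 lay above treated arrays 2 and 4, so treated and untreated scores overlapped.

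Granule and precursor genes differed among themselves. Mmp9 and Mmp8 encode late-granule proteases. Mmp9 lay at 0.95, -0.49, 0.12 and 0.38 on treated arrays, against -1.98, -1.07, -1.16 and -1.17 on sham arrays, and Mmp8 at 2.46, 0.20, 1.14 and 1.33, against -1.58, -0.10, 0.05 and -0.14. Chi3l1, a chitinase-like granule protein, had a difference of 1.31 ± 0.48, and Cebpe, a transcription factor of granulocyte maturation, one of 0.91 ± 0.36. All 4 genes were above sham on all treated arrays. The genes of early azurophil granules did not separate: Mpo lay at -0.16 ± 0.35 and Elane at 0.15 ± 0.58. Of 14 genes tested 5 were above sham (35.7%, against 5.87% of all genes), with a relative median of 1.05, which was 0.11 with the dose labels exchanged.

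**Figure D2:**
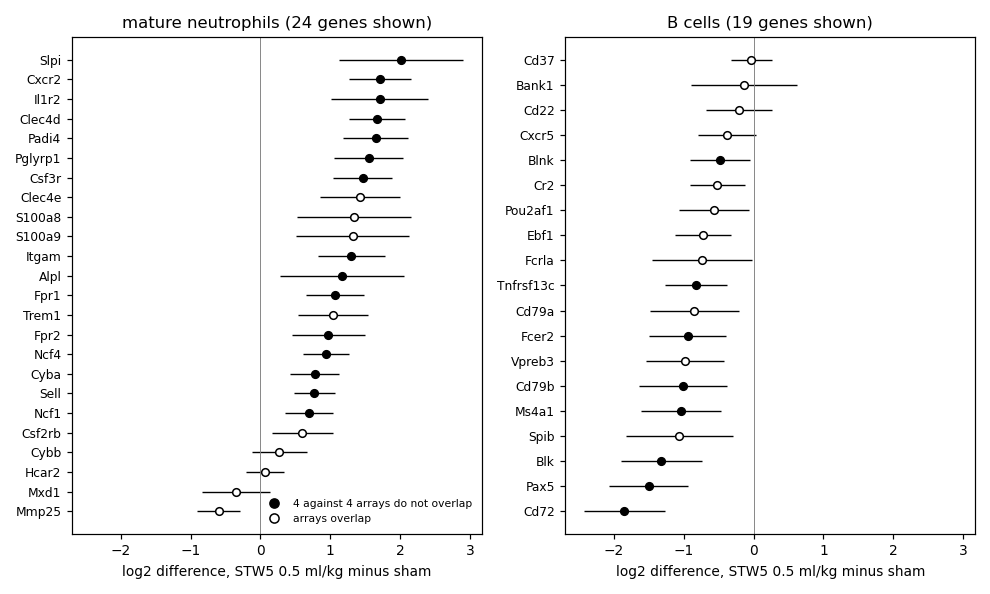
Log2 differences of STW5 0.5 ml/kg minus sham with limma standard errors, for 24 mature neutrophil genes (left) and 19 B-cell genes (right). Filled points mark genes whose 4 treated and 4 sham arrays did not overlap, 15 and 8 genes; 22 neutrophil genes lay above 0 and all 19 B-cell genes plotted lay under it.

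B-cell genes lay on the other side. All 20 tested had a difference below 0, 18 of them below the median gene, and 8 (40%, against 4.44% of all genes) were below sham on all treated arrays. Cd72, an inhibitory co-receptor of B cells, lay at -3.28, -3.87, -4.18 and -2.73 on treated arrays, against -1.59, -2.01, -1.59 and -1.48 on sham arrays (-1.85 ± 0.58, limma adjusted p = 0.322). Pax5, the transcription factor of B-cell identity, lay at 2.18, 0.64, 1.22 and 1.44 on treated arrays, against 3.01, 3.1, 2.48 and 2.91 on sham arrays. Outside the treated and sham groups, the Pax5 probe did not follow Cd72 or the list on several arrays. On untreated array 2 Pax5 was at its highest (3.91), whereas Cd72 was at its lowest (-5.38) and the B-cell score was -2.07. On STW5 2 ml/kg arrays 1 and 2 Pax5 lay at 3.24 and 3.58, with B-cell scores of -1.03 and -0.53. On untreated array 3 Pax5 was at its lowest (0.45), with a B-cell score of 0.71. How far this probe reports B cells was not tested. Blk, a kinase of B-cell receptor signalling, had a difference of -1.32 ± 0.58, Ms4a1, which encodes CD20, one of -1.03 ± 0.57, and Cd79b, part of the receptor complex, one of -1.02 ± 0.63. The relative median was -0.64, with a range of -0.79 to -0.49 when single arrays were left out. Without treated array 4, 15 of the 20 genes were below sham, against 1110 of all 15239 genes. With spike-in scaling 1 was, against 8 of all genes, and with the dose labels exchanged 3 were, against 494.

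Other cell types separated less. T-cell genes had a relative median of -0.16, with 2 of 23 below sham (8.7%, against 4.44% of all genes), Cd4 at -0.63 ± 0.32 and Lck at -0.53 ± 0.50. The T-cell median turned positive with normexp background correction, without the dim-probe filter and without treated array 3 (0.0023), and was -0.045 without sham array 2. Ccr7, a homing receptor of naive T cells, lay at -0.64 ± 0.49, and at -0.38 without sham array 2 or -0.40 without treated array 4. Monocyte genes had a relative median of 0.64, with 4 of 19 above sham (21.1%, against 5.87% of all genes). The monocyte median was -0.051 with the dose labels exchanged and 0.32 without treated array 2. Vcan, a proteoglycan of classical monocytes, lay at -0.22, 0.22, 0.90 and -0.89 on treated arrays, against -2.28, -1.88, -1.65 and -1.44 on sham arrays. Ccr2, the receptor by which monocytes leave the marrow, had a difference of 1.09 ± 0.34, and Lgals3, galectin-3, one of 1.33 ± 0.45. Cd14 (0.78 ± 0.66) and Csf1r (0.15 ± 0.35) overlapped between groups.

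Erythroid genes had the lowest median, -0.75, yet 2 of 39 were below sham on all treated arrays (5.13%, against 4.44%) and 1 was above. Hba-a1, an alpha-globin gene, lay at 10.93, 9.80, 10.01 and 10.52 on treated arrays, against 11.31, 10.76, 11.36 and 11.49 on sham arrays. The bright treated arrays 2 and 3 were the lowest, and treated array 1 lay above sham array 2. Klf1, the erythroid transcription factor, had a difference of -1.22 ± 0.47 and Car2, a carbonic anhydrase of red cells, one of -0.97 ± 0.39. With the 75th percentile as a covariate the list's median was 0.40, and without treated array 2 it was -0.48. Globin copies are near identical, and a probe of 1 copy may bind the others.

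NK and cytotoxic genes had a relative median of 0.58, which was -0.071 with the 75th percentile as a covariate and 0.06, 1.01 and 0.28 without treated array 2, sham array 1 and sham array 4, and of 19 genes none was above sham and 1 below (5.26%). Tbx21, the T-bet transcription factor, lay at -0.73 ± 0.34 and Klrk1, the NKG2D receptor, at -0.36 ± 0.22, with its other probe at 0.073. Klrb1a lay at 0.88 ± 0.48, and at 1.45 without sham array 1, 0.56 without treated array 2 and 0.55 without sham array 4. Of 7 plasma-cell genes 2 were above sham (28.6%, against 5.87% of all genes). These were Xbp1, a factor of secretory cells, at 0.74 ± 0.32, and Prdm1, at least 1.27-fold higher with 0 of 4 sham arrays above background. Tnfrsf17, the BCMA receptor, lay at 1.14 ± 0.43, and the list's median of 0.89 was -0.058 with the dose labels exchanged. Platelet (0.29), eosinophil, basophil and mast cell (0.88) and dendritic cell lists (-0.17, positive without the dim-probe filter) held no gene apart from sham. Without treated array 2 the eosinophil, basophil and mast cell median was 0.15. The platelet median was 0.46 without treated array 4, 0.19 without sham array 2 and 0.47 without sham array 4, and the dendritic cell median -0.054, -0.068 and -0.10 without treated array 1 and sham arrays 3 and 4. Among their members were Rgs18 at 0.63 ± 0.39, F5 at 0.64 ± 0.38 (0.42 without treated array 2), Gp5 at -0.46 ± 0.30, Siglec5 at 0.95 ± 0.41 (0.60 without treated array 3) and Hdc at 1.15 ± 0.53 (0.74 without treated array 1). Alox15 lay at -1.55 ± 0.71, Batf3 at -0.72 ± 0.35, Zbtb46 at -0.81 ± 0.48 (-0.49 without treated array 2) and Clec10a at 1.14 ± 0.83 (0.56 without treated array 2).

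**Figure D3:**
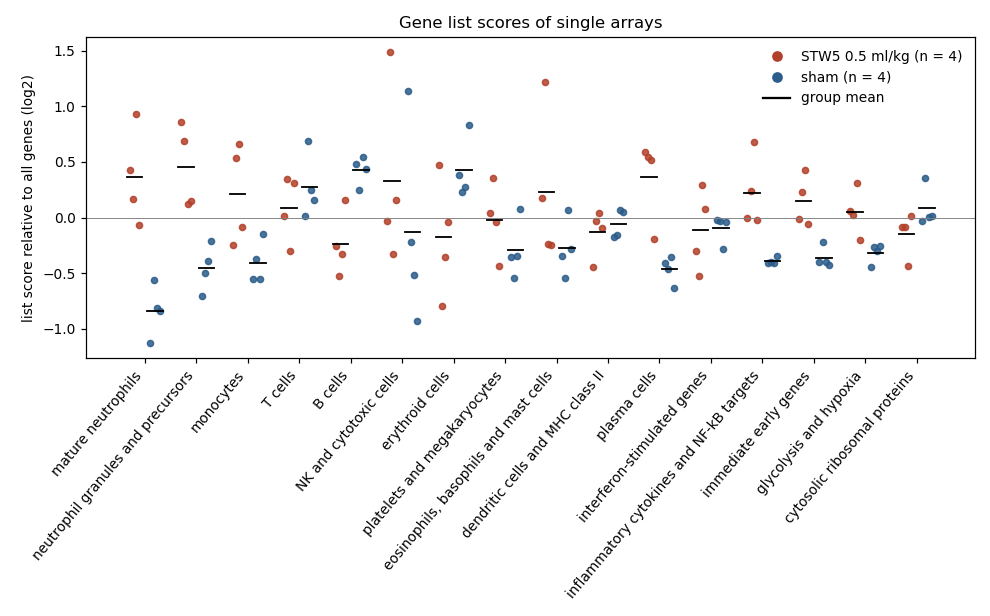
Scores of 16 gene lists on each array (log2, relative to all genes), STW5 0.5 ml/kg in red left of sham in blue, with group means as black lines. Treated and sham arrays were apart for mature neutrophils (-0.06 to 0.93 against -1.13 to -0.56) and for inflammatory genes (-0.02 to 0.68 against -0.41 to -0.35), and overlapped for T cells, NK cells and platelets.

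Immediate early genes, transcription factors and feedback regulators switched on within minutes of a stimulus, had a relative median of 0.72, and 9 of 25 were above sham on all treated arrays (36%, against 5.87%). Junb, a subunit of the AP-1 factor, lay at 3.14, 3.50, 4.27 and 3.25 on treated arrays, against 1.94, 2.27, 2.31 and 2.34 on sham arrays (1.32 ± 0.34, limma adjusted p = 0.283). Ier5 lay at 3.24, 3.80, 3.99 and 3.32 on treated arrays, against 2.05, 2.16, 2.37 and 2.31 on sham arrays, and Rgs2, a brake on G-protein signalling, at 3.29, 3.28, 3.81 and 3.04, against 1.89, 2.58, 2.13 and 2.39. The levels of all 3 genes on sham arrays stayed below every treated array. Jun had a difference of 1.33 ± 0.48, whereas Egr1 lay at -1.15 ± 0.59 and Cd69 at -0.73 ± 0.41, both with overlap. The list was not of 1 direction, and its median was 0.25 with the dose labels exchanged, 0.32 with the 75th percentile as a covariate and 0.39 without treated array 2.

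Glucocorticoid-induced genes had a relative median of 0.35, with 3 of 18 above sham (16.7%). That median ran from 0.046 to 0.72 over 25 alternative settings, and from 0.28 to 0.47 without single arrays. Cebpd, a transcription factor induced by steroids and cytokines, lay at 3.80, 3.59, 4.48 and 3.47 on treated arrays, against 1.59, 2.31, 1.92 and 2.28 on sham arrays. Bcl6, a transcriptional repressor, lay at 3.35, 3.71, 3.91 and 3.43, against 2.60, 2.45, 2.40 and 2.33, and Sgk1, a steroid-induced kinase, had a difference of 1.16 ± 0.36. The classical targets Fkbp5 (0.69 ± 0.42), Tsc22d3 (0.35 ± 0.28) and Per1 (-0.88 ± 0.47) overlapped between groups.

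Lipid-mediator genes included 3 that lay higher on every treated array. Alox5, the 5-lipoxygenase that makes leukotrienes, lay at -0.34, -0.91, -0.26 and -1.08 on treated arrays, against -2.78, -1.70, -2.02 and -2.30 on sham arrays, and Alox5ap, its activating protein, at 2.02, 1.98, 2.74 and 1.30, against 0.27, 0.85, 0.36 and 0.59. Pla2g7, a plasma phospholipase that degrades platelet-activating factor, lay at 3.39, 3.78, 4.49 and 3.75 on treated arrays, against 1.85, 2.30, 1.76 and 2.12 on sham arrays (1.85 ± 0.42, limma adjusted p = 0.239 on 20 arrays, 0.0396 on 8). None of the 3 genes overlapped between groups. Of 18 eicosanoid genes 4 were above sham (22.2%) and 1 below (5.56%), with a relative median of 0.54 that was -0.0065 with normexp and 0.31 without treated array 2. Among adhesion and chemokine receptor genes 2 of 23 were above sham (8.7%, near the 5.87% of all genes). Cd44, the hyaluronan receptor, lay at 1.16 ± 0.35 by its brightest probe and 0.096 to 0.70 by 3 others. Itgb7, an integrin of gut homing, lay at 0.86 ± 0.34. Ccr1 lay at 1.2 ± 0.45, or 0.79 without treated array 3, and the list's median of 0.31 turned negative with the 75th percentile as a covariate and with the dose labels exchanged.

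Iron-handling genes were of both directions. Steap4, a metalloreductase of inflammation, lay at 2.46, 3.31, 3.4 and 2.84 on treated arrays, against 0.54, 1.14, 0.66 and 0.68 on sham arrays, by its brightest probe (2.25 ± 0.48, limma adjusted p = 0.239 on 20 arrays, 0.0366 on 8). Its next probe lay at 1.46 and its dimmest at -0.64, so the probes disagreed in direction. Fbxl5, the iron sensor that degrades iron-regulatory proteins, had a difference of 1.38 ± 0.36, and Tf, transferrin, one of 1.42 ± 0.54. Ftl1, the ferritin light chain, lay at -0.94 ± 0.36 with overlap. Of 16 genes 5 were above sham (31.2%) and 1 below (6.25%), and the relative median was 0.13, or 0.28, 0.39 and 0.21 without treated array 1, treated array 4 and sham array 2.

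Of 32 glycolysis and hypoxia genes 8 were above sham (25%, against 5.87% of all genes) and 0 below, with a relative median of 0.29 (0.45 without treated array 4). Slc16a3, the lactate exporter, lay at 4.26, 3.50, 4.91 and 3.67 on treated arrays, against 2.50, 3.27, 2.82 and 3.14 on sham arrays. Enzymes of the lower pathway had small differences that did not overlap between groups: Tpi1 0.65 ± 0.34, Pgam1 0.52 ± 0.26, Pgk1 0.45 ± 0.23 and Eno1 0.28 ± 0.22. By group means, Hk2, a hexokinase, was at least 1.45-fold higher and Bnip3, a hypoxia-induced mitophagy receptor, at least 2.09-fold. Both had 0 of 4 sham arrays above background. Bnip3 overlapped between groups, at -3.25, -1.54, -1.76 and -3.72 on treated arrays, against -4.33, -3.78, -3.26 and -4.18 on sham arrays. Hif1a lay at -0.02 ± 0.34.

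Oxidative phosphorylation genes had a relative median of -0.082, positive with normexp and without the dim-probe filter and -0.17 to -0.025 without single arrays, and 4 of 63 were below sham (6.35%). Ndufa1 lay at -1.04 ± 0.39, Ndufa3 at -0.71 ± 0.32 (-0.47 without treated array 2) and Timmdc1, an assembly factor of complex I, at -0.67 ± 0.23. Of 25 fatty acid oxidation genes 3 were above sham (12%) and 0 below, and 17 lay above the median gene. Of the other direction, and with overlap between groups, were the carnitine carrier gene Slc25a20 at -1.26 ± 0.55 and Hadha at -0.70 ± 0.35. The other Hadha probe lay at -0.29. The fatty acid oxidation median of 0.19 was 0.33 without treated array 1. It turned negative with the 75th percentile as a covariate, with the dose labels exchanged and without the 2 brightest treated arrays.

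Cytosolic ribosomal protein genes had a relative median of -0.23, and 18 of 78 were below sham (23.1%, against 4.44%). Rpl24 lay at 8.62, 8.19, 8.07 and 8.59 on treated arrays, against 9.01, 8.80, 9.07 and 8.96 on sham arrays, with Rps29 at -0.79 ± 0.30. The differences were under 1 log2 unit for both genes. The median turned positive with quantile normalization (0.097) and with normexp (0.17). The count was 0 with quantile normalization or spike-in scaling (488 and 8 of all genes) and 2 with normexp (1428). It was 29, 28 and 29 without treated array 1, treated array 4 and sham array 1 (2465, 1110 and 915 of all genes), and the median was -0.12 and -0.14 without treated array 3 and sham array 2. Ribosomal pseudogenes are many, and probes may bind them.

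Interferon-stimulated genes lay on both sides, with a relative median of -0.031 that changed sign in 10 of 25 settings, among them quantile normalization and normexp. Of 39, 4 were below sham (10.3%, against 4.44%) and 1 above (2.56%). Lgals3bp lay at 4.05, 3.43, 3.34 and 4.88 on treated arrays, against 5.69, 5.41, 4.92 and 5.70 on sham arrays, and Herc6 at 2.23, -0.17, 1.16 and 2.19, against 4.02, 3.01, 2.29 and 3.09. Irf7, the factor that amplifies type I interferon responses, lay at -1.43 ± 0.54 with overlap. Regulatory T-cell genes included Foxp3, the defining factor of that lineage, at -3.01, -3.70, -2.92 and -2.80 on treated arrays, against -2.07, -2.42, -2.32 and -2.28 on sham arrays. Foxp3 was the 1 of 13 T helper and regulatory genes below sham (7.69%), with Stat6 at -0.61 ± 0.24 and Tnfrsf4 at -0.77 ± 0.45 (-0.48 without treated array 2). That list's median of -0.25 was -0.46 to -0.06 without single arrays and turned positive without the dim-probe filter and with the dose labels exchanged.

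Stress and turnover genes separated little. Nfe2l2, which encodes the NRF2 factor, lay at 0.75 ± 0.25 and Gsr, glutathione reductase, at 0.89 ± 0.37, whereas Txn1, thioredoxin, lay at -1.15 ± 0.50. The oxidative stress list's median of -0.072 changed sign in 9 of 25 settings, with 2 of 30 genes above and 2 below sham (6.67% each). Drug-metabolism genes had 3 of 14 above sham (21.4%): Cyp4f18, a fatty acid hydroxylase, at 1.13 ± 0.35, Ugt1a6, a glucuronosyltransferase, at 1.22 ± 0.53, and Nat1, at least 1.63-fold higher. The median of that list was 0.25, or 0.39, 0.11 and 0.38 without treated array 4, sham array 2 and sham array 4. Of 40 proteasome and unfolded protein genes 3 were above sham (7.5%) and 1 below (2.5%), with Ddit3, the CHOP factor, at 0.69 ± 0.32, Psmd4 at -0.84 ± 0.39 and Pdia4 at least 1.51-fold higher. No heat shock gene of 17 was apart from sham. Hsph1 lay at 0.77 ± 0.42 (0.43 without sham array 3), Dnaja1 at 0.40 ± 0.31 and Hspb1 at -0.63 ± 0.40 (-0.39 without treated array 2). Of 25 apoptosis genes 1 was above sham and 1 below (4% each), with Bbc3, the PUMA gene, at 0.80 ± 0.34, Mcl1 at 0.40 ± 0.20 and Casp9 at 0.60 ± 0.27. The median was 0.16 for proteasome and 0.24 for heat shock genes, and without treated array 2 it was 0.077 and 0.055. These medians and that of the apoptosis list (0.35) turned negative with the 75th percentile as a covariate and with the dose labels exchanged. No cell cycle gene of 30 was apart: Cdc20 lay at -1.53 ± 0.50, Ube2c at -1.20 ± 0.45 and Birc5 at -1.19 ± 0.47, and the median of -0.15 turned positive in 4 of 25 settings, among them the 75th percentile as a covariate.

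**Figure D4:**
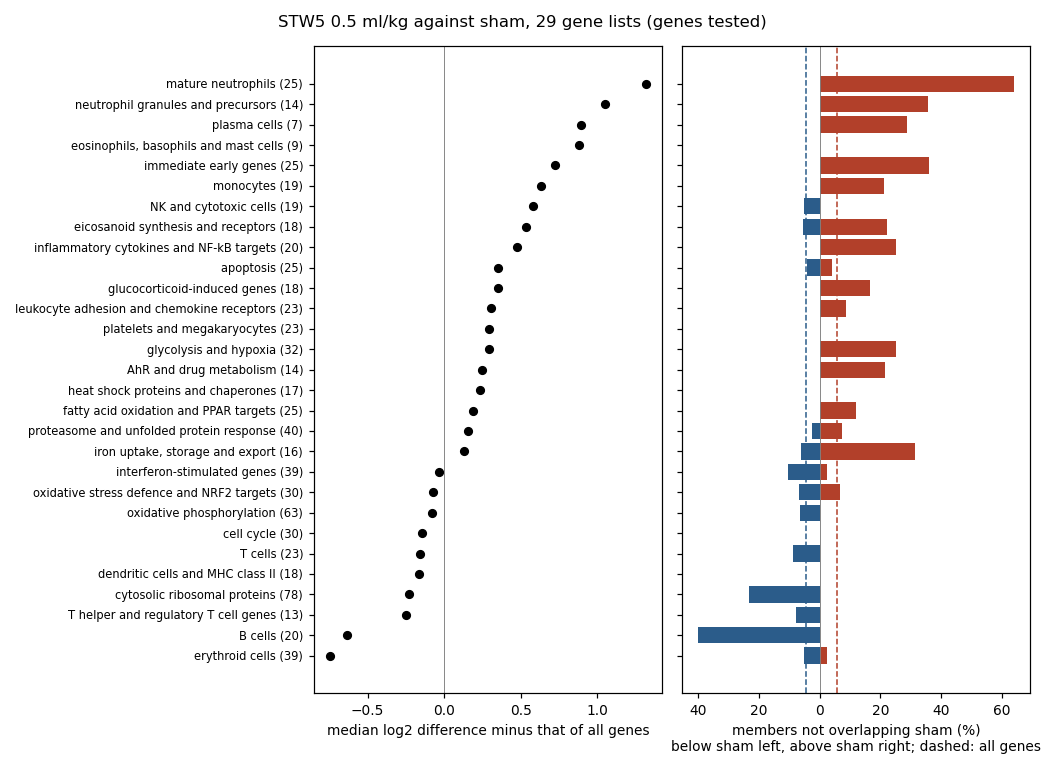
For 29 gene lists, with the number of genes tested, the median log2 difference of STW5 0.5 ml/kg minus sham relative to all genes (left), and the percentage of members above (red) or below (blue) sham on all 4 arrays (right); dashed lines mark 5.87% and 4.44% of all genes. Mature neutrophils lay at one end (1.32 and 64%), erythroid (-0.75) and B-cell lists (-0.64 and 40%) at the other.

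Genes of no list were among those with the smallest p. Mogat2, an acyltransferase of triglyceride synthesis, lay at -0.67, -1.08, -0.26 and -1.43 on treated arrays, against -3.47, -2.96, -2.59 and -3.25 on sham arrays, where 2 of 4 were well above background (2.21 ± 0.38, limma adjusted p = 0.176 on 20 arrays, 0.0396 on 8). Cdc42ep3, an effector of the CDC42 GTPase, lay at 0.50, 0.56, 0.68 and 0.26 on treated arrays, against -1.45, -1.05, -0.84 and -1.28 on sham arrays. Klra2, a lectin-like receptor of the Ly49 family, lay at -0.95, -0.21, 0.46 and -0.95, against -2.86, -1.95, -2.84 and -2.75 on sham arrays. Only 1 of the 4 sham arrays was well above background for Klra2, and Ly49 genes are similar enough for a probe to bind several. Mogat2, Cdc42ep3 and Klra2 were above sham on every treated array. Cpd, a carboxypeptidase, had a difference of 1.70 ± 0.36, with 2 of 4 sham arrays well above background. Clec5a, a myeloid lectin receptor, was at least 1.94-fold higher with 0 of 4 sham arrays above background. With normexp, the differences of Clec5a, Prdm1, Hk2, Bnip3, Nat1 and Pdia4 lay between -0.31 and -0.022, all below 0.

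On the lower side, Krt222, a keratin-like gene, lay at -2.63, -2.36, -3.21 and -2.73 on treated arrays, against -0.95, -1.15, 0.07 and -0.56 on sham arrays (-2.09 ± 0.53, limma adjusted p = 0.283 on 20 arrays, 0.0412 on 8). It was the 1 gene lower in the fit of the 8 arrays. Henmt1, a methyltransferase of small RNAs, lay at -1.80, -1.85, -2.39 and -2.09 on treated arrays, against -0.36, -0.98, 0.79 and 0.09 on sham arrays. Trim21, an antibody receptor inside cells, lay at -1.57, -3.27, -2.62 and -2.19 on treated arrays, against -0.10, -0.28, -1.29 and -0.44 on sham arrays. The groups of all 3 genes were apart. Kank1 lay at -1.73 ± 0.39 by its brighter probe and at 0.78 by its dimmer one. Znrd1as1 had a difference of -0.97 ± 0.23, with its other probe at -0.56, and Rai1 one of -1.10 ± 0.28; Rai1 was well above background on 1 treated and 2 sham arrays.

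**Figure D5:**
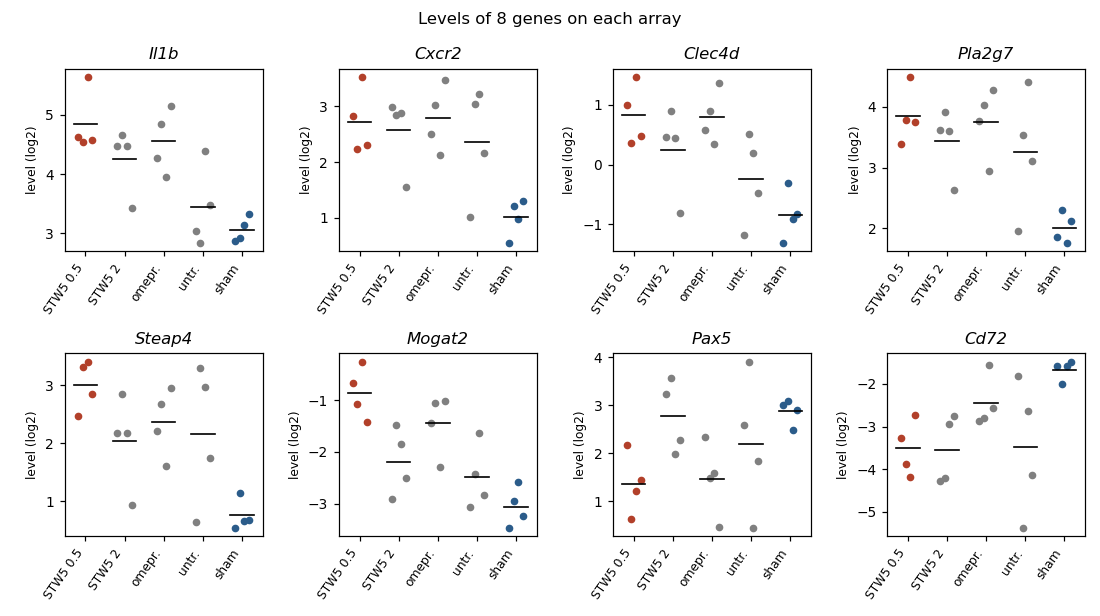
Levels (log2, relative to the array's 75th percentile) of 8 genes on each array of the 5 groups, 4 arrays each, with group means as lines. The treated arrays (STW5 0.5 ml/kg, red) were apart from the sham arrays (blue) for all 8 genes, Il1b at 4.55 to 5.64 against 2.87 to 3.33. For all 8 genes at least 1 array of the omeprazole group fell within the range of the treated arrays.

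Whether the difference from sham was that of esophagitis left untreated was tested directly as STW5 0.5 ml/kg minus untreated, in which the sham mean cancels. The untreated arrays lay on slide 1 with the sham arrays, so slide and group cannot be told apart here either. No gene passed (limma, 0 of 15239, 0%; 906 with an unadjusted p below 0.05; smallest adjusted p 0.181). All treated arrays were above all untreated arrays for 104 genes (0.682%) and below them for 185 (1.21%), and the median gene lay at 0.023. Untreated array 1 was closer to sham array 3 (0.992) than to any other array. Its mean correlation with the sham arrays was 0.984, and its Cxcr2 level was 1.02. The untreated means below include this array. The untreated mean lay with the treated mean for Cxcr2 (2.73 with STW5 and 2.37 untreated), Alox5 (-0.06 ± 0.47 for the difference) and C5ar1 (0.080 ± 0.38), but nearer the sham mean for Il1b (4.85 with STW5, 3.44 untreated, 3.07 sham) and Mogat2 (-0.86, -2.49 and -3.07). The difference from untreated rats was 1.41 ± 0.36 for Il1b (limma adjusted p = 0.476), 1.63 ± 0.38 for Mogat2 and 1.97 ± 0.42 for Klra2 (0.448 for both). For mature neutrophil genes the relative median against untreated was 0.34, with 0 of 25 apart. For B-cell genes it was 0.054. B-cell scores ran from -0.53 to 0.16 on treated arrays and T-cell scores from -0.30 to 0.34. Untreated array 2 stood at -2.07 and -2.37 in these scores, and the other 3 untreated arrays ran from -0.16 to 0.71 for B cells and from -0.20 to 0.38 for T cells. Without untreated array 1 or untreated array 3, 5 genes passed in each case, 1 higher and 4 lower. Of these, chosen after their values were seen, Cyp2t1 was lower in both fits (-1.90 and -1.95), Mcpt8l2, a mast cell protease-like gene, was higher without array 1 (2.45), and Acod1, the itaconate-producing enzyme, Cx3cl1, a chemokine, and Klra2 lay at -3.56, -2.43 and 2.35 without array 3; the others were LOC100363229 and 3 features without a gene symbol.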

How the data were processed

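Blood RNA was hybridised to 1-colour arrays. The deposited scanner files hold intensity per spot from Agilent Feature Extraction 10.7.3.1, background-subtracted and not scaled between arrays, per the file headers. The value table that the authors deposited gives each probe's ratio to its array's median, as a match to the scanner files showed; 12 columns follow their own array and 8, the STW5 ones, follow the array of the other dose, so it served as an alternative only.

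Levels were the deposited processed intensity divided by its array's 75th percentile over non-control spots, in log2. Spots of a probe were averaged, outlier spots left out. Of 30367 probes, 17236 were well above background on at least 4 of 20 arrays, and the brightest probe stood for each of 15239 genes (10851 with a symbol). limma 3.58.1 (R 4.3.3) fitted 5 group means over 20 arrays (15 residual degrees of freedom); p values were two-sided and adjusted by Benjamini-Hochberg over all genes, threshold 0.05. The fit was tested on simulated data. The labels give 4 animals per group; 4 arrays per group limit the precision. A gene above background on no array of the dimmer group is given as "at least" a fold, from the lowest signal well above background.

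Named genes were those past the threshold, or, with none, 6 in each direction by smallest p, and the 3 of each list with the smallest p; other genes were named after their values were seen. The 29 lists (868 symbols, 742 tested) came from general knowledge. The comparison, the genes and the lists were chosen with earlier results of these data known. Replicate numbers were not taken as pairs: same-numbered treated and sham arrays correlated in their deviations at 0.064, 0.41, -0.088 and 0.10. Alternatives were background correction, scaling, filter, probe choice, covariate, replicate block, dose labels, the value table, fewer arrays and left-out arrays. Some genes that the rule selects are not reported here; they stay in the list counts and medians.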

Additional observations from a re-analysis of the deposited data

Results flagged for a closer look

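In 15 of 252 groups of 4 arrays tested, 1 array lay far from the other 3 by Dixon's criterion at 95%; chance gives about 1 in 20. Treated array 3 stood above the others for Il1b (5.64, the others 4.55 to 4.63) and Cd44 (4.64, the others 3.79 to 3.93), and treated array 2 for Pdia4 (-2.59, the nearest -3.48). Treated array 4 stood below the others in the plasma cell score (-0.20, the nearest 0.52) and the drug metabolism score (-0.14, the nearest 0.09). Sham array 1 stood below the others for Mmp9 (-1.98, the nearest -1.17) and Junb (1.94, the nearest 2.27). Sham array 2 stood apart for Klra2 (-1.95, the nearest -2.75), Tbx21 (6.99, the nearest 7.49) and Tnfrsf4 (4.11, the nearest 4.86). It also stood apart in the scores of immediate early genes (-0.22, the nearest -0.40), ribosomal proteins (0.36, the nearest 0.02) and heat shock proteins (0.31, the nearest -0.16). Sham array 3 stood apart in the interferon score (-0.28, the nearest -0.04) and sham array 4 for Clec5a (-4.00, the nearest -4.93).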

How the results depend on the processing

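Of 2370 values of 95 genes under alternatives, 2290 kept their direction, and 658 of 725 list medians kept their sign. Against sham, 0 genes passed with all 20 arrays, 40 with the 8 arrays alone, 241 with those and quantile normalization and 137 with those and normexp. Leaving out 1 of the 8 arrays gave 0 to 996 (996, 56 and 1 without treated array 1, treated array 2 and sham array 3). The last 2 of these normalizations and the left-out arrays of this fit were chosen after seeing the data. So was the setting without the 2 brightest treated arrays. With the replicate block 0 genes passed (limma, 2514 with an unadjusted p below 0.05); the numbers did not pair the samples. Against untreated rats 1 gene passed with the 75th percentile as a covariate, 2 with the value table as labelled and 0 to 5 without single arrays.

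Genes above sham on all arrays numbered 895, and 960 to 1452 without single arrays (1452 without treated array 1). Genes below sham numbered 677, and 1428 with normexp, also with 8 arrays, 1850 without the dim-probe filter, 8 with spike-in scaling and 760 to 2465 without single arrays (2465, 1110, 2108 and 1112 without treated arrays 1 and 4 and sham arrays 2 and 3). The median of all genes was -0.28 with normexp, 0.0018 with quantile normalization, 0.66 with spike-in scaling and -0.52 without the filter, against -0.16.

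Genes that reversed were as follows, and the cause was not tested. With normexp, with 20 or 8 arrays, they were Bnip3 -0.022, Casp9 -0.335, Clec5a -0.133, Hk2 -0.271, Hsph1 -0.266, Nat1 -0.256, Pdia4 -0.307 and Prdm1 -0.312. With quantile normalization, with 20 or 8 arrays, they were Hba-a1 2.68e-05, Rpl24 0.0832 and Rps29 0.0455. With the covariate they were Clec10a -0.146, Gp5 0.0972, Hadha 0.0397, Hba-a1 0.0308, Hspb1 0.125, Psmd4 0.0305, Tbx21 0.133, Tnfrsf4 0.406 and Zbtb46 0.389. With spike-in scaling they were Batf3 0.0956, Ccr7 0.177, Cd4 0.188, Gp5 0.354, Hadha 0.116, Hspb1 0.183, Klrk1 0.455, Lck 0.287, Ndufa3 0.106, Rpl24 0.227, Rps29 0.0295, Stat6 0.206, Tbx21 0.0827, Timmdc1 0.151, Tnfrsf4 0.0433 and Zbtb46 0.00831. With the dose labels exchanged they were Bnip3 -0.456, Car2 0.00311, Casp9 -0.113, Cebpe -0.142, Dnaja1 -0.285, Hba-a1 0.151, Hspb1 0.63, Klrk1 0.169, Nfe2l2 -0.0856, Psmd4 0.0898, Rpl24 0.172, Rps29 0.264, Stat6 0.113, Tbx21 0.765, Tnfrsf4 0.185, Xbp1 -0.0458 and Zbtb46 0.0525. With the value table as labelled they were Bnip3 -0.481, Casp9 -0.138, Cebpe -0.167, Dnaja1 -0.31, Hba-a1 0.127, Hspb1 0.605, Klrk1 0.144, Nfe2l2 -0.11, Psmd4 0.0651, Rpl24 0.147, Rps29 0.24, Stat6 0.0887, Tbx21 0.74, Tnfrsf4 0.161, Xbp1 -0.0704 and Zbtb46 0.0278.

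Signal over background limits the sham values of Clec5a, Prdm1, Tnfaip2, Hk2, Bnip3, Nat1 and Pdia4, for which only a bound can be given. Some sham values of Mogat2, Klra2, Cpd and Nlrp3 were also not well above background. Slide and group cannot be told apart, and the dose labels conflict.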
